A study of Mus musculus with 2 samples.

Results

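Lrg1, Wfdc21, Pglyrp1 and Hp encode secreted proteins of innate defence that neutrophils carry or release. They were taken by gene symbol, and they are 4 of the 32285 genes listed in both count matrices of a single-cell RNA sequencing study of mouse leukemic promyelocytes. The 4 were chosen by their measured CPM in the retinoic acid library against the vehicle library, so that difference is described here and was not tested. Camp and Elane served as reference genes for the state of each cell.

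The cells were progenitors transformed by PLZF/RARA, a fusion of the zinc finger protein PLZF with the retinoic acid receptor alpha, from leukemic bone marrow. Both groups carried the fusion, and both were sorted as late promyelocytes by the phenotype Cd45.2+, C-Kit+, Gr1+, Cd34-, FcγR+. The vehicle group received corn oil with 10% DMSO and the retinoic acid group 0.8 to 1 mg of retinoic acid, both by intraperitoneal injection for 7 days. The labels give cohorts of 3 to 5 mice, but neither the age of the animals nor how many of them contributed to a library. Each group held 1 library, so differences between mice, sorts and preparations cannot be told apart from the treatment, and no value below has a replicate check.

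The filters left 5476 vehicle cells with 99107718 UMIs in total and 7140 retinoic acid cells with 110088247, where a UMI (unique molecular identifier) stands for a single captured RNA molecule. The median cell had 16750 and 14604 UMIs, of which 1.98% and 1.23% were mitochondrial, and the libraries shared 11 cell barcodes. Of 6 promyelocyte markers, Ctsg (6444 and 5979 CPM, a gene's UMIs as a percent of the library's, times 10000, vehicle first) and Ms4a3 (850 and 2087 CPM) were abundant in both libraries, whereas Mpo was at 311 and 0.50 CPM. The others were far apart or low: Prtn3 was at 246 and 2819 CPM, Elane at 62.8 and 7663 CPM and Kit at 19.3 and 16.7 CPM. The summed level of 8 neutrophil maturation genes was 1587 CPM under vehicle and 61498 CPM under retinoic acid, and that of 6 mast cell or basophil genes was 739 and 66.4 CPM. Among the latter, Cpa3 was at 570 and 0.10 CPM, Gata2 at 43.2 and 1.14 CPM and Mcpt8 at 122 and 63.1 CPM. Ms4a2 went the other way, with 144 and 226 UMIs. The 6 eosinophil genes summed to 114 and 30.5 CPM. Of the B cell genes, Ighm was at 4.98 and 42.6 CPM, and Cd79a had 198 and 212 UMIs. The 5 monocyte genes (1.13 and 0.94 CPM), the 5 erythroid genes (2.99 and 0.14 CPM) and the 5 T cell genes (0.17 and 0.15 CPM, 4 of them at 0 in each library) were near 0. How far these differences in cell state or makeup bear on the 4 genes was not tested.

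Developing neutrophils make their granule proteins in waves: Elane, neutrophil elastase, belongs to the primary granules of promyelocytes, and Camp, the antimicrobial peptide cathelicidin, to the secondary granules of the later myelocyte stage. Lrg1, leucine-rich alpha-2-glycoprotein, is an acute-phase protein of liver and neutrophils that modulates TGF-β signalling in endothelium. Wfdc21 encodes a small protein of the whey acidic protein (WAP) family, whose fold is held by disulfide bonds between cysteines. Pglyrp1 is a peptidoglycan recognition protein of neutrophil granules that binds bacterial cell walls, and Hp, haptoglobin, binds free hemoglobin and is cleared with it through the receptor CD163.

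The genes lie on 4 chromosomes of the GRCm38 build in the GENCODE M21 annotation. Lrg1 (ENSMUSG00000037095) is on the minus strand of chromosome 17, from 56119678 to 56122001. Wfdc21 (ENSMUSG00000051748) is on the plus strand of chromosome 11, from 83746940 to 83752642. Pglyrp1 (ENSMUSG00000030413) is on the plus strand of chromosome 7, from 18871331 to 18890459, and Hp (ENSMUSG00000031722) on the minus strand of chromosome 8, from 109575128 to 109579172. The Wfdc21 coding sequence is printed to show its cysteine codons. It spans chr11:83747027-83749327 on the plus strand in 2 coding exons, has 192 bases or 64 codons with the stop, and holds 6 in-frame cysteine codons, TGC or TGT, which are in capitals.
Wfdc21 coding sequence: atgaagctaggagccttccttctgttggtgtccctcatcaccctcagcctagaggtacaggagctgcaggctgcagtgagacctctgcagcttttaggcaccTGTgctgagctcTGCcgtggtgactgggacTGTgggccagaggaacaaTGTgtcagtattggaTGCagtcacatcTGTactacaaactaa

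Promoters are printed for Lrg1 and Pglyrp1, the 2 of the 4 genes matched in the promoter table, which also differed in their vehicle patterns. The sequences are RefSeq's for GRCm38.p6, 5′ to 3′ along the gene's own strand: 195 bases for Lrg1 (chr17:56122002-56122196, minus strand), from 250 to 56 bases before the start, and 240 bases for Pglyrp1 (chr7:18884440-18884679, plus strand), from 250 to 11 bases before it. Capitals mark ATTGC, a core of sites for C/EBP factors, and AGGAAG, a core of sites for ETS factors such as PU.1, each searched on both strands (GCAAT and CTTCCT are the reverse complements). No match overlapped another. The start here is RefSeq's. For Pglyrp1 the printed stretch lies inside the longer span that GENCODE M21 gives the gene, from 18871331 to 18890459.
Lrg1 promoter: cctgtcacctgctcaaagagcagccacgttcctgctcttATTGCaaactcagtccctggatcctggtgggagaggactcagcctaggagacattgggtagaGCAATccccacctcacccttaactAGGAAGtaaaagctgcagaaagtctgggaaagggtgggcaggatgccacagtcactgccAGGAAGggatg
Pglyrp1 promoter: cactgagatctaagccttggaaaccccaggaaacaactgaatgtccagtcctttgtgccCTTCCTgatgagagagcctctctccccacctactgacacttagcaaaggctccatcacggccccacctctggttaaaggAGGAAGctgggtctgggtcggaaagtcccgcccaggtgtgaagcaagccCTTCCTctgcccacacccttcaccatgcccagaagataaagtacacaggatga

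In the whole 250 bases before the RefSeq start, Lrg1 held 3 matches to ATTGC and 3 to AGGAAG. The last of each lay nearer to the start than the printed stretch. These last matches fall in the 55 bases left out, which are inside the Lrg1 gene as GENCODE M21 gives it. Pglyrp1 held 3 matches to AGGAAG and 0 to ATTGC. Over 32851 promoter windows of that length, 23.1% held at least 1 ATTGC and 0.530% at least 3, while 29.5% held at least 1 AGGAAG and 1.22% at least 3. The Camp window held 1 and 2 matches and the Elane window 1 and 1, in that order. The longer C/EBP site TTGCNNAA, the nuclear receptor half-site AGGTCA, the STAT site TTCNNNGAA and the TATA box TATAAA (9.56%, 14.0%, 7.02% and 12.4% of windows) had no match in these letters in the Lrg1, Pglyrp1, Camp or Elane window. A match is a stretch of letters and not a measured binding site.

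All 4 genes were higher in the retinoic acid library, but from different starting points. Lrg1 and Wfdc21 were close to absent under vehicle, whereas Pglyrp1 and Hp were already well measured there. The Lrg1 level was 10.2 CPM under vehicle (95% counting interval 9.60 to 10.9, 1013 UMIs) and 286 CPM under retinoic acid (283 to 289, 31488 UMIs), a 28.0-fold difference or a log2 ratio of 4.81 (4.72 to 4.90). Wfdc21 was at 16.1 CPM (15.3 to 16.9, 1595 UMIs) and 993 CPM (987 to 998, 109273 UMIs), 61.7-fold apart with a log2 ratio of 5.95 (5.88 to 6.02). The intervals of the libraries lie far apart for both genes, and these intervals cover counting error only.

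Pglyrp1 was at 438 CPM under vehicle (433 to 442, 43364 UMIs) and 1054 CPM under retinoic acid (1048 to 1060, 116072 UMIs), a 2.41-fold difference with a log2 ratio of 1.27 (1.25 to 1.28). Hp was at 174 CPM (172 to 177, 17272 UMIs) and 1086 CPM (1080.3 to 1093, 119606 UMIs), 6.23-fold apart with a log2 ratio of 2.64 (2.62 to 2.66). The plot of levels by library shows the short step of Pglyrp1 beside the long ones of Wfdc21 and Lrg1.

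**Figure D1:**
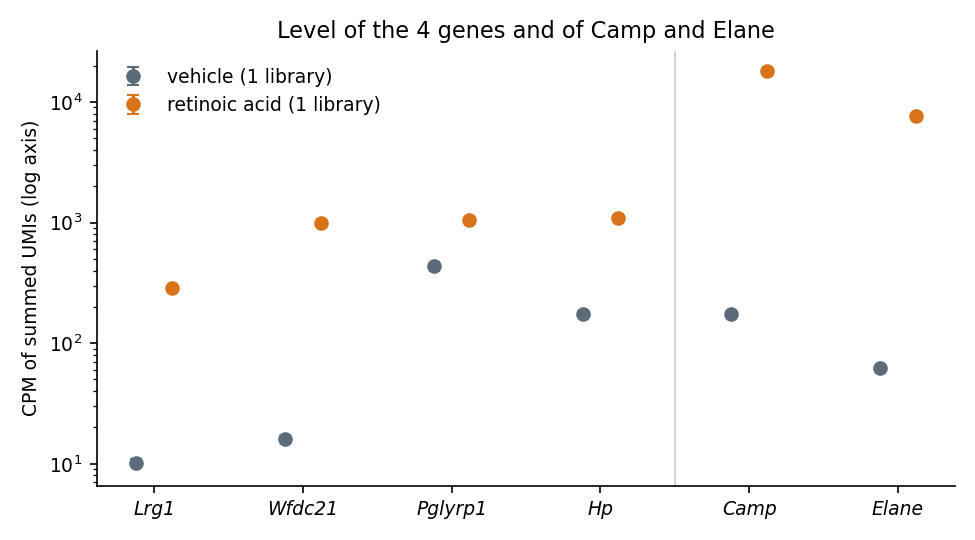
Level of each gene in the vehicle and the retinoic acid library, in CPM on a log axis, with 1 point per library and exact 95% Poisson intervals (counting error only). All 4 genes and both reference genes are higher under retinoic acid, from 2.41-fold for Pglyrp1 to 61.7-fold for Wfdc21 among the 4.

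In all, 5548 genes reached 20 CPM in the vehicle or the retinoic acid library. Of these, 3.03% were at least 2-fold higher under retinoic acid, and all 4 genes were among them. At least 4-fold higher were 0.883% of the genes and 3 of the 4, and at least 16-fold higher 0.433% and 2 of the 4, Lrg1 and Wfdc21. Lrg1 and Wfdc21, at 10.2 and 16.1 CPM under vehicle, passed the 20 CPM limit only through the retinoic acid library, which favours a high ratio. All 4 genes were also chosen for this contrast, so nothing is read from these counts or from the median and ranks that follow. Their median log2 ratio was 3.72, that of all genes tested 0.01. Ordered by ratio, Wfdc21 stood at rank 8, Lrg1 at 16, Hp at 39 and Pglyrp1 at 100, Elane at 2 with a log2 ratio of 6.93 (62.8 and 7663 CPM) and Camp at 3 with 6.70 (175 and 18200 CPM).

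Detection in single cells was compared after each cell of at least 5000 UMIs had been thinned at random to 5000. This step kept 5282 cells of the vehicle library, dropping 194 with fewer UMIs, and 6659 of the retinoic acid library, dropping 481. Lrg1 had at least 1 UMI in 225 vehicle cells (4.26%, exact 95% interval 3.73 to 4.84%) and in 4594 retinoic acid cells (69.0%, 67.9 to 70.1%). Wfdc21 was found in 222 vehicle cells (4.20%, 3.68 to 4.78%) and in 5983 retinoic acid cells (89.8%, 89.1 to 90.6%). Both thus went from a small minority to most cells. The unthinned shares were 11.3% and 88.4% for Lrg1 and 8.53% and 94.7% for Wfdc21.

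Pglyrp1, by contrast, was found in 84.6% (83.6 to 85.5%) of the vehicle cells and in 97.4% (97.0 to 97.7%) under retinoic acid, and without thinning in 96.8% and 98.9%. Its difference in CPM was therefore mostly one in UMIs per cell: the median cell had 2 of 5000 UMIs under vehicle and 5 under retinoic acid. Hp lay between, with 48.1% (46.8 to 49.5%) of the vehicle cells and 95.9% (95.4 to 96.3%) under retinoic acid, and without thinning 75.7% and 97.9%. Its median cell had 0 UMIs under vehicle and 5 under retinoic acid.

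Within the retinoic acid library the UMIs of each gene were spread unevenly over the cells. The median and the highest cell had 1 and 16 UMIs of Lrg1, 4 and 48 of Wfdc21, 5 and 39 of Pglyrp1, and 5 and 32 of Hp. The 10% of cells with the most UMIs of a gene held 34.4% of those of Lrg1, 32.8% for Wfdc21, 24.1% for Pglyrp1 and 24.0% for Hp. The mean per cell was 1.63 UMIs for Lrg1, 5.81 for Wfdc21, 5.67 for Pglyrp1 and 5.78 for Hp. Sampling noise alone raises such a share, the more so at a low mean, and its part was not tested.

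**Figure D2:**
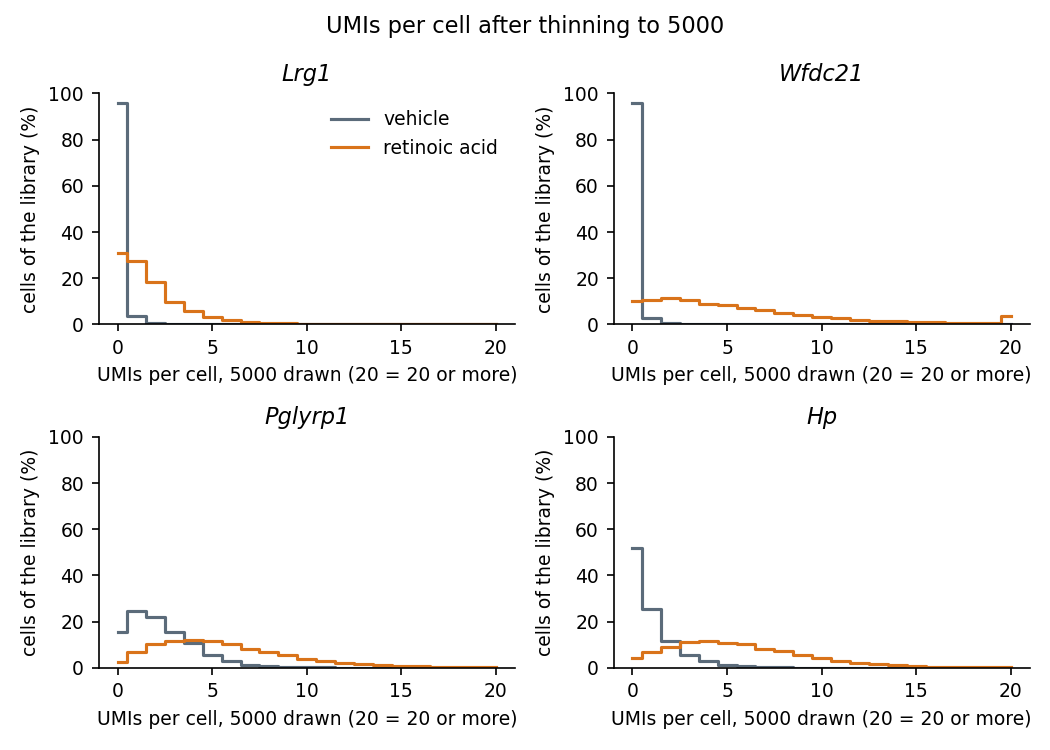
Share of cells (percent) by UMIs of each gene per cell after thinning to 5000 UMIs, for 5282 vehicle and 6659 retinoic acid cells. For Lrg1 and Wfdc21 95.7% and 95.8% of vehicle cells sit at 0, while for Pglyrp1 the libraries overlap broadly around medians of 2 and 5 UMIs.

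The genes were also found together more often under retinoic acid, where 4195 cells (63.0%, 61.8 to 64.2%) had a UMI of each of the 4 and 7 cells (0.105%) had none. Under vehicle 52 cells (0.984%, 0.736 to 1.29%) had all 4, 2550 (48.3%) had 1 and 435 (8.24%) had none. Such counts rise with the share of cells positive for each single gene, so by themselves they show no tie between the genes. Detection of Lrg1 and Wfdc21 went together in the vehicle cells: Lrg1 was found in 29.7% of the 222 cells with Wfdc21 and in 3.14% of the 5060 cells without it. Hp went with both, being found in 81.1% of the cells with Wfdc21 and in 46.7% of those without it. With and without Lrg1 the Hp share was 72.4% and 47.0%. Pglyrp1 showed little such tie, being found in 84.7% of the cells with Wfdc21 and in 84.6% of those without it. With and without Lrg1 the Pglyrp1 share was 88.9% and 84.4%.

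Free RNA in droplets can place UMIs in cells that do not make a gene, so cells rich in eosinophil genes (at least 1% of their UMIs) were read as a comparison. In the 17 such vehicle cells, with a median of 8957 UMIs, 0 had a UMI of Lrg1, Wfdc21, Camp or Elane, which allows, at 3 cells of 17, a share of up to 17.6% of cells with a UMI. Hp was found in 1 of them and Pglyrp1 in 15 (88.2%), at 771 CPM. The Pglyrp1 share there was not below that of all vehicle cells, so for Pglyrp1 these cells give no background. The retinoic acid library held 2 such cells, median 10700 UMIs, too few to set a background: they had 0 UMIs of Lrg1, Wfdc21, Hp and Elane, 6 of Camp and 16 of Pglyrp1. In the barcodes that the filter removed, whose median was 1026 UMIs in the retinoic acid library, Lrg1 stood at 74.7%, Wfdc21 at 48.2%, Pglyrp1 at 55.2% and Hp at 82.1% of its level in the kept cells. In the removed vehicle barcodes, with a median of 1207.5 UMIs, Lrg1 stood at 103% (6 UMIs), Wfdc21 at 43.5% (4 UMIs), Pglyrp1 at 33.2% and Hp at 59.2%.

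Over retinoic acid cells all 4 genes varied together with Camp. Pearson's r of log2(UMIs + 1) with Camp was 0.50 for Lrg1, 0.58 for Wfdc21, 0.54 for Pglyrp1 and 0.47 for Hp over 6659 cells, and Spearman's rho 0.50, 0.59, 0.56 and 0.45. Under vehicle, over 5282 cells, r with Camp was 0.51 for Lrg1 and 0.77 for Wfdc21, but 0.27 for Hp and 0.04 for Pglyrp1. In the same order, Spearman's rho was 0.28, 0.44, 0.21 and 0.04. Without the 53 vehicle cells with the most Camp UMIs, r was 0.19, 0.40, 0.19 and 0.02. Those cells were picked by Camp itself, and a narrower range of Camp lowers r. The drop therefore does not show how far the relation rested on them. Camp was found in 193 of the 5282 vehicle cells (3.65%), which limits these vehicle values. With Ngp, a neutrophilic granule protein gene, Pglyrp1 had r = 0.16 under vehicle and 0.52 under retinoic acid. Among themselves the 4 genes had r from 0.29 (Pglyrp1 with Hp) to 0.46 (Lrg1 with Wfdc21) under retinoic acid. Under vehicle the pair Lrg1 and Wfdc21 had 0.49, and Pglyrp1 had between 0.04 and 0.07 with each of the others. These values describe cells that share a library, and at few UMIs per cell sampling noise lowers r.

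With Elane the relation was weak, and under retinoic acid it was negative or near 0. Over retinoic acid cells r with Elane was −0.22 for Lrg1, −0.14 for Wfdc21, −0.15 for Pglyrp1 and −0.01 for Hp, and under vehicle it was 0.07, 0.05, 0.02 and 0.13. Camp and Elane themselves had r = −0.38 under retinoic acid.

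**Figure D3:**
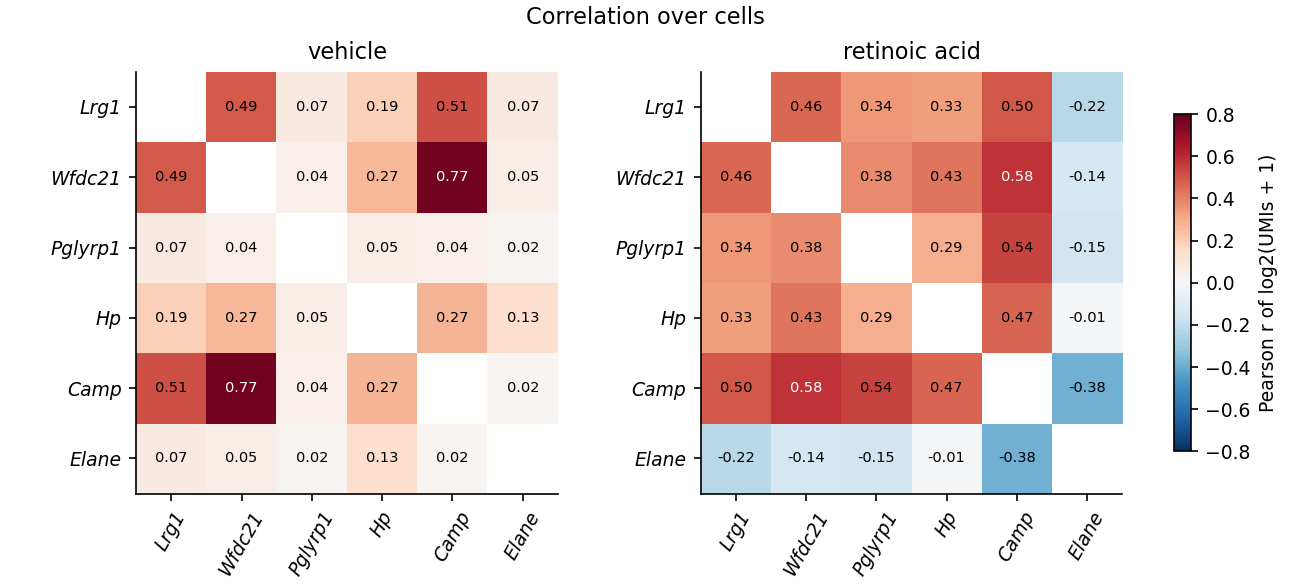
Pearson's r of log2(UMIs + 1) over cells for each pair of the 4 genes, Camp and Elane, in the vehicle library (5282 cells) and the retinoic acid library (6659 cells). Pglyrp1 with Camp is at 0.04 under vehicle and 0.54 under retinoic acid, and the Elane row is negative under retinoic acid, at −0.01 for Hp.

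The sign of the Elane relation differed with the Camp level of the cells. This split was chosen after the data had been seen. In the 3331 retinoic acid cells with at most the median of 48 Camp UMIs, r with Elane was 0.20 for Lrg1, 0.46 for Wfdc21, 0.14 for Pglyrp1 and 0.36 for Hp. In the 3328 cells above the median it was −0.24, −0.22, −0.059 and −0.0067. Of the cells, 34 sat exactly at the median.

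The levels show the same pattern when cells are also split at the median of 34 Elane UMIs, where 60 cells lay. Among cells low in Camp, Wfdc21 was at 386 CPM in the 1183 cells low in Elane and at 725 CPM in the 2148 high in Elane, a log2 ratio of 0.91 (0.87 to 0.95). Among cells high in Camp it was at 1593 CPM in the 2179 cells low in Elane and at 1260.3 CPM in the 1149 high in Elane, a log2 ratio of −0.34 (−0.36 to −0.32). Lrg1 followed the same order, at 127 and 196 CPM in the low-Camp classes and 459 and 381 CPM in the high-Camp classes. Hp was at 673 and 936 CPM among cells low in Camp and at 1389 and 1401 CPM among cells high in Camp, where the log2 ratio of 0.013 (−0.0097 to 0.035) includes no difference. Pglyrp1 differed least between the low-Camp classes, at 680.3 and 801 CPM, and was at 1452 and 1392 CPM in the high-Camp classes. Camp itself moved with Elane within these classes, from 2855 to 3672 CPM among cells low in Camp and from 44980 to 24418 CPM among cells high in Camp, and its part in the sign was not tested.

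**Figure D4:**
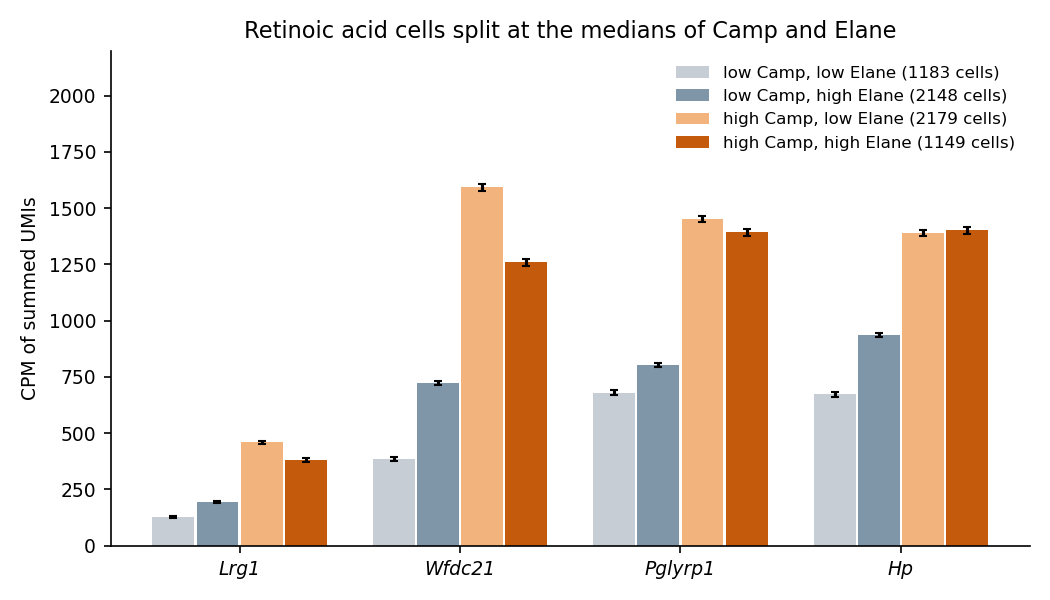
Level of each gene (CPM, bars from 0, exact 95% Poisson intervals) in 4 classes of retinoic acid cells split at the median Camp (48 UMIs) and Elane (34 UMIs) counts. Wfdc21 is lowest in cells low in both (386 CPM) and highest in cells high in Camp and low in Elane (1593 CPM).

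Ranked by Camp UMIs and divided into 4 near-equal groups of 1664 or 1665, the retinoic acid cells showed a step up of every gene from each group to the next. Going up these groups, Lrg1 was at 125, 221, 329.5 and 566 CPM, and its log2 ratio between the top and the bottom group was 2.17 (2.12 to 2.23). Wfdc21 was at 451, 771, 1080 and 1998 CPM, a log2 ratio of 2.15 (2.12 to 2.18). Pglyrp1 was at 646, 878, 1222 and 1720 CPM with a log2 ratio of 1.41 (1.39 to 1.44), and Hp at 702, 994, 1263 and 1578 CPM with 1.17 (1.14 to 1.19). Lrg1 and Wfdc21 thus spread over about the same range of folds, and Pglyrp1 and Hp over a narrower one.

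The same groups differed in other ways. Elane was at 8219, 9741, 8015 and 3463 CPM, the median depth at 17848, 16951, 15480 and 10856 UMIs, and the share of cells called G1 at 23.0%, 21.1%, 22.9% and 44.6%. Their part in the steps was not tested.

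In the vehicle library, a few Camp-rich cells held a large share of the Wfdc21 UMIs and a smaller share of the Lrg1 UMIs. The 53 vehicle cells with the most Camp, at least 29 of 5000 UMIs, were 1% of the cells and held 0.684% of all UMIs. They contained 737 of 1530 Wfdc21 UMIs (48.2%, 45.6 to 50.7%) and 225 of 994 Lrg1 UMIs (22.6%, 20.1 to 25.4%). Most Lrg1 UMIs thus lay elsewhere: the 5089 vehicle cells without a Camp UMI among 5000 held 661 of the 994. Those cells held 448 of the Wfdc21 UMIs. For Hp the share in the 53 cells was 3.80% and for Pglyrp1 0.949%, little above the share of all UMIs. Of the 52 vehicle cells with all 4 genes, 32 were among these 53 cells.

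Wfdc21 was at 1094 CPM in those 53 cells and at 8.10 CPM in the 5229 others, Lrg1 at 334 and 7.86 CPM, Hp at 969 and 169 CPM, and Pglyrp1 at 607 and 436 CPM. Against the vehicle cells without them, in cells of at least 5000 UMIs, the log2 ratio of retinoic acid over vehicle was 6.92 for Wfdc21 (6.82 to 7.02), 5.17 for Lrg1, 2.68 for Hp and 1.27 for Pglyrp1. The Wfdc21 difference thus depends by more than 1.5-fold on 1% of the vehicle cells. This comparison was added after the data had been seen.

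Cells were then compared between the libraries within 5 classes of Camp UMIs (0, 1 to 4, 5 to 19, 20 to 99 and 100 or more of 5000), also chosen after the data had been seen. In cells with at least 100 Camp UMIs, 27 under vehicle and 2386 under retinoic acid, Wfdc21 was at 1708 CPM (1560 to 1867) and 1695 CPM (1680.2 to 1709), a log2 ratio of −0.013 (−0.14 to 0.12). Lrg1 was at 494 CPM (415 to 582) and 493 CPM (485 to 501), a log2 ratio of −0.0060 (−0.24 to 0.25). For both genes no difference between the libraries was detectable in these cells, with only 27 vehicle cells holding 141 Lrg1 and 488 Wfdc21 UMIs. The intervals cover counting error and not the spread between cells or libraries, so they are too narrow as limits on a difference. Elane was at 3.50 CPM, a single UMI, in the vehicle cells of this class and at 4894 CPM in the retinoic acid cells. Camp itself was at 38535 CPM under vehicle and 48303 CPM under retinoic acid, so these cells were not equal in Camp.

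Pglyrp1 stood apart in the same cells, at 725 CPM under vehicle (629 to 830.3) and 1571 CPM under retinoic acid (1557 to 1585), a log2 ratio of 1.11 (0.92 to 1.32). Hp was at 1152 and 1492 CPM, a log2 ratio of 0.37 (0.22 to 0.53). With 20 to 99 Camp UMIs (35 vehicle and 2192 retinoic acid cells) the log2 ratios were 0.66 for Lrg1, 0.74 for Wfdc21, 1.13 for Pglyrp1 and 0.51 for Hp. With 5 to 19 (21 and 1423 cells) they were 0.41 (−0.04 to 0.95), 0.48, −0.026 (−0.21 to 0.18) and −0.35 (−0.50 to −0.18). The summed Hp level was thus lower there under retinoic acid, but it was set against 21 vehicle cells. With 1 to 4 (110 and 558 cells) they were 1.56 (1.20 to 1.97), 1.95 (1.73 to 2.19), 0.21 (0.12 to 0.31) and 0.47 (0.37 to 0.58). The Pglyrp1 ratio had no steady course over the classes, and each of the 3 Camp-rich vehicle classes held few cells. Camp itself was higher under retinoic acid in these classes too. It was at 192 and 598 CPM with 1 to 4 Camp UMIs, vehicle first. With 5 to 19 it was at 1507 and 2314 CPM, and with 20 to 99 at 8280 and 9647 CPM. Its part in the ratios was not tested.

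In cells without a Camp UMI among 5000 the difference was widest for Lrg1 and Wfdc21. The 5089 vehicle cells of this class had 6.93 CPM of Lrg1 and 4.70 CPM of Wfdc21, the 100 retinoic acid cells 78.1 and 254 CPM, which gives log2 ratios of 3.50 (3.22 to 3.76) and 5.75 (5.56 to 5.95). Pglyrp1 was at 434 and 530.3 CPM (log2 ratio 0.29) and Hp at 160.1 and 482 CPM (log2 ratio 1.59). The cells of this class were not alike in Camp, which over all their UMIs was at 2.66 CPM under vehicle and 216 CPM under retinoic acid.

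**Figure D5:**
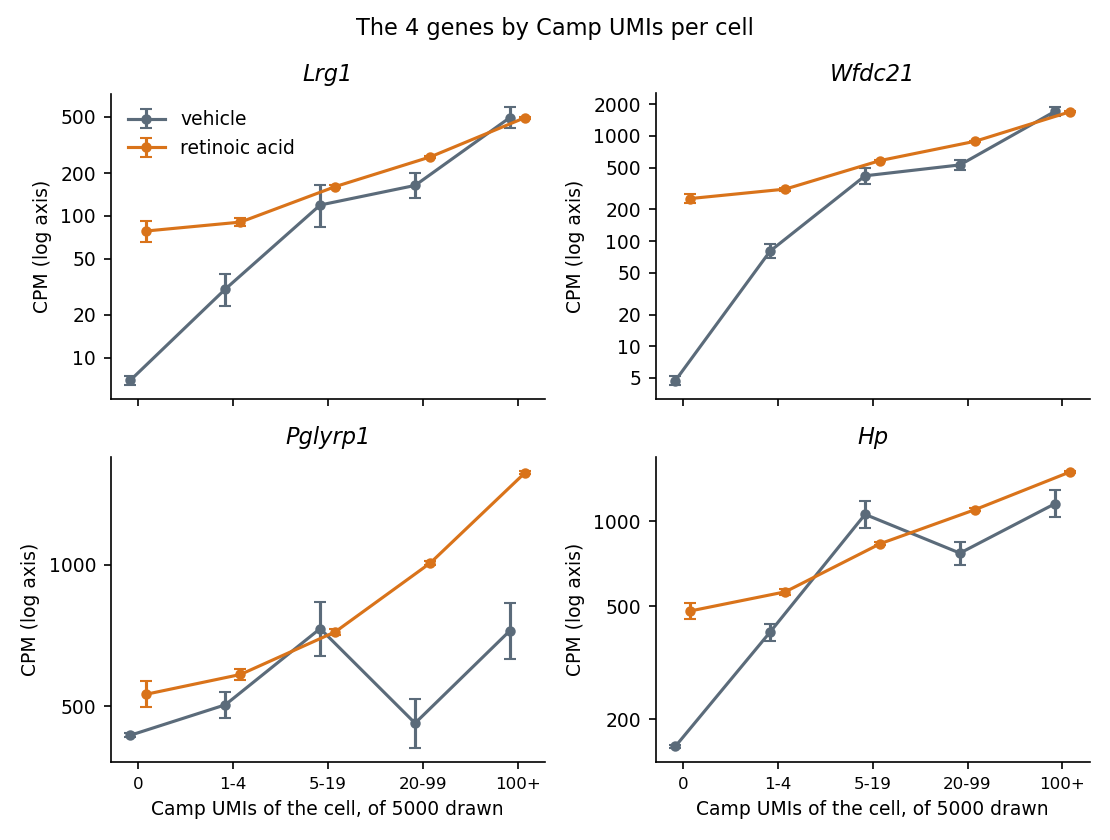
Level of each gene (CPM, log axis, exact 95% Poisson intervals) in cells of each library by Camp UMIs of 5000, with class sizes from 21 vehicle cells (5 to 19 UMIs) to 5089 (0 UMIs). The lines of the libraries meet for Lrg1 and Wfdc21 at 100 or more Camp UMIs, while Pglyrp1 is at 725 CPM under vehicle and 1571 CPM under retinoic acid.

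By cell cycle phase, called from S and G2/M gene lists, every gene was highest in G1 and lowest in G2/M of the retinoic acid library. Wfdc21 was at 1532 CPM in 1859 G1 cells, 980 CPM in 1691 S cells and 783 CPM in 3109 G2/M cells, and Lrg1 at 426, 286 and 232 CPM. Pglyrp1 was at 1222, 1048 and 992 CPM and Hp at 1267, 1159 and 988 CPM, so their range over the phases was narrower. Camp followed the same order, at 27291, 18553 and 14393 CPM. Within each of the 4 Camp groups G1 cells had more Lrg1, by log2 ratios of 0.42, 0.40, 0.40 and 0.65 from the lowest to the highest. They also had more Wfdc21, by 0.24, 0.36, 0.47 and 0.83. Camp and depth were not matched between G1 and other cells within a group, and their part was not tested. For Pglyrp1 these ratios were 0.063 to 0.12 and for Hp 0.12 to 0.20.

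Under vehicle (2788 G1, 625 S and 1869 G2/M cells) Lrg1 was at 14.0, 10.6 and 6.51 CPM, Wfdc21 at 22.4, 15.7 and 9.50 CPM and Pglyrp1 at 502, 423 and 385 CPM. Hp was the exception, with its highest level in S, at 190.4, 204 and 153 CPM.

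The genes most alike to each of the 4 over retinoic acid cells, among 5131 candidates with at least 20 CPM in that library, were nearly the same small group of neutrophil genes. For Wfdc21 they were S100a8 (r = 0.72), S100a9 (0.69), Camp (0.58), Lcn2 (0.55) and Ngp (0.52). S100a8 and S100a9 encode the subunits of calprotectin and Lcn2 an iron-scavenging lipocalin. For Lrg1 they were Camp (0.50), S100a8 (0.49), S100a9 (0.48), Ngp (0.48) and Lcn2 (0.46), and for Hp S100a8 (0.48), Camp (0.47), S100a9 (0.46), Wfdc21 (0.43) and Ngp (0.39). For Pglyrp1 the order was Camp (0.54), Ngp (0.52), S100a9 (0.44), S100a8 (0.41) and Cd177 (0.39), a neutrophil surface glycoprotein. At the other end, the chaperone gene Hsp90ab1 was the most negative for each, from −0.33 for Hp to −0.53 for Wfdc21. These candidates include abundant genes, which r favours because they are counted with less noise.

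Other secreted granule and defence genes were read from a list drawn up with earlier results known. Of 25 listed, 11 reached 20 CPM in either library. Under retinoic acid 8 of them were at least 2-fold higher (all genes 3.03%) and 2 at least 2-fold lower (all genes 5.05%). Their median log2 ratio was 2.91 beside 0.01 for all genes. Retnlg, Ltf and Orm1 passed the limit only through the retinoic acid library, and Camp is a reference gene. Nothing is read from these counts for that reason. Besides Camp, Ngp and Lcn2, the higher ones were Retnlg, a resistin-like protein (3.28 and 234 CPM), Ltf, lactoferrin (4.73 and 105 CPM), Orm1, orosomucoid (4.86 and 87.5 CPM), complement component C3 (79.3 and 261 CPM) and Lyz2, lysozyme (168 and 387 CPM). The lower ones were Slpi, a protease inhibitor of the WAP family like Wfdc21 (2403 and 1053 CPM, log2 ratio −1.19), and Anxa1, annexin A1 (441 and 55.3 CPM, −3.00). Cst3, cystatin C, was at 490 and 449 CPM.

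Most relatives of Wfdc21 and Pglyrp1 were too low to compare. Of 8 listed, Wfdc12 alone reached 20 CPM, at 346 and 105 CPM (log2 ratio −1.72; 5.05% of all genes were at least 2-fold lower). Pglyrp2, an amidase that cleaves peptidoglycan, had 189 and 90 UMIs, Pglyrp3 had 0 in both libraries, and Pglyrp4 had 0 and 1. Wfdc17 had 32 and 41 UMIs.

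Of 11 partner and receptor genes, 3 reached 20 CPM, and the 1 that was at least 2-fold apart was Tgfb1, the TGF-β ligand, at 293 and 144 CPM (log2 ratio −1.03; 5.05% of all genes were at least 2-fold lower). Tyrobp, an adaptor that signals for TREM receptors, was at 965 and 984 CPM, and Itgb2, the chain shared by the leukocyte integrins, at 45.7 and 73.3 CPM. Cd163, the receptor for haptoglobin bound to hemoglobin, had 81 and 6 UMIs. Trem1, a receptor that Pglyrp1 binds, was at 4.68 and 11.0 CPM.

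Of 11 regulators known for such genes, 7 reached 20 CPM and Cebpd, a C/EBP factor of the acute-phase response, was the 1 at least 2-fold higher, at 98.3 and 209 CPM (log2 ratio 1.09; 3.03% of all genes were at least 2-fold higher). Log2 ratios were 0.93 for Gfi1, 0.76 for Spi1 (PU.1), 0.68 for Cebpb and 0.14 for Stat3. Cebpe, which drives secondary granule genes, was at 401 and 359 CPM (−0.16), and Cebpa at 47.2 and 40.2 CPM (−0.23).

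Genes next to the 4 on the chromosomes were read as well. Of 23 genes annotated within 50 kb, 14 had at least 10 UMIs over both libraries and 7 reached 20 CPM, of which 0 were at least 2-fold apart (all genes 8.07%), a count too small to set the neighbours apart from all genes. None of the 23 overlapped the gene it neighbours. Ccdc61, 424 bases from Pglyrp1, had a log2 ratio of 0.07, Heatr6, 1054 bases from Wfdc21, 0.45, and Txnl4b, 1077 bases from Hp, 0.46. Near Lrg1, Sema6b (1084 bases) was at −0.04, and Plin5 (2082 bases), a lipid droplet protein gene with 58 and 162 UMIs, at 1.32 (0.89 to 1.79), about the ratio of Pglyrp1. Near Hp, Pkd1l3 had 49 and 12 UMIs and a log2 ratio of −2.14 (−3.23 to −1.25), and Pmfbp1 9 and 2 UMIs and −2.08. Stretches of 31 bases shared with other genes were 0 for the Lrg1, Wfdc21 and Pglyrp1 transcripts and 4 of 1315 for Hp, so near-identical copies that could split their reads were not found.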

How the data were processed

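The deposited values were raw UMI counts per gene and cell; per the file headers, Cell Ranger 4.0.0 wrote them, and mm10 and GRCm38.p4 are the builds named in the submitters' processing notes. The 4 genes, the gene lists and the rules were chosen with earlier results of these data known. Barcodes with under 1000 UMIs, under 500 genes or over 10% mitochondrial UMIs were removed (310 vehicle, 276 retinoic acid). Scrublet called 1 and 7 cells doublets (0.018% and 0.098%), was taken not to have worked, and no doublets were removed. Counts were summed per library and given as CPM, not divided by transcript length, with exact Poisson intervals. Ratios had 0.5 counts added and exact binomial intervals, and shares had Clopper-Pearson intervals, all at 95% and for counting error only. A sum of 0 allows 3 counts, 0.030 or 0.027 CPM. No test was made, because each group held 1 library. Cells of at least 5000 UMIs were thinned to 5000 (seed 1). Summed levels by class used all UMIs of those cells. Named genes were the 4, Camp and Elane, the 5 genes most alike to each, list members that reached 20 CPM in a library, and neighbours within 50 kb with at least 10 UMIs; Mpo, Cpa3, Ighm, Cd79a and the other markers, the list members under 20 CPM and the most negative gene were named after their values were seen. Of the gene identifiers, 32235 matched GENCODE M21. Tools were Python 3.11.15, scipy 1.17.1, scanpy 1.11.5 and edgeR 4.0.16 (TMM factors only).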

Additional observations from a re-analysis of the deposited data

How the results depend on the processing

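No paired analysis was possible because there was 1 vehicle and 1 retinoic acid library. Of 236 alternative values, 137 lay inside the reported value's counting interval (correlations within 0.05, gene counts within 1.5 times), 94 moved and 5 changed sign. The log2 ratios kept their direction and their side of 2-fold under every alternative run. TMM scaling gave 6.03 for Wfdc21, 1.35 for Pglyrp1 and 2.72 for Hp. A total without Camp, Ngp, S100a8, S100a9 and Elane gave 4.90 for Lrg1, 6.04 for Wfdc21, 1.37 for Pglyrp1 and 2.74 for Hp. Equal weight for every cell gave 4.67 for Lrg1, 5.52 for Wfdc21 and 1.31 for Pglyrp1. Removal of the 5% of cells with the highest Scrublet scores (274 and 357 cells) gave 2.61 for Hp. Leaving out the Camp-rich 1% of vehicle cells gave 5.17 for Lrg1, 6.92 for Wfdc21 and 2.68 for Hp. Genes at least 2-fold apart numbered 923 with a limit of 5 CPM, 133 with 100 CPM and 6081 with none; TMM gave 436, of which 190 were higher and 246 lower, against 168 and 280.

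Shares of positive cells depended on depth and on the UMIs required. In the order Lrg1, Wfdc21, Pglyrp1 and Hp, thinning to 3000 UMIs gave 2.97%, 2.86%, 70.05% and 35.6% of vehicle cells and 54.5%, 83.1%, 91.7% and 90.6% of retinoic acid cells. No thinning gave 11.3%, 8.53%, 96.8% and 75.7%, and 88.4%, 94.7%, 98.9% and 97.9%. Requiring 2 UMIs gave 0.814%, 1.67%, 60.1% and 22.8%, and 41.4%, 79.2%, 90.4% and 89.1%.

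Under retinoic acid, r with Camp was 0.63 for Lrg1, 0.63 for Pglyrp1 and 0.53 for Hp without thinning, 0.47 for Pglyrp1 and 0.40 for Hp at 3000 UMIs, and 0.56 for Lrg1 and 0.65 for Wfdc21 in G1 cells. With Elane, r in G1 cells was −0.37 for Lrg1, −0.34 for Wfdc21, −0.23 for Pglyrp1 and −0.079 for Hp, and Spearman's rho was −0.15 for Lrg1 and −0.071 for Wfdc21. In cells with at most the median Camp count the sign changed, to 0.20 for Lrg1, 0.46 for Wfdc21, 0.14 for Pglyrp1 and 0.36 for Hp; above the median it was −0.22 for Wfdc21 and −0.059 for Pglyrp1. Without thinning Hp was at 0.016, which also changed sign. The cause was not tested.

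Between the highest and the lowest Camp group, the log2 ratio was 2.03 for Lrg1, 1.94 for Wfdc21 and 1.05 for Hp when cells were ranked by Ngp. With the neutrophil maturation genes out of the total it was 2.48 for Lrg1, 2.45 for Wfdc21, 1.72 for Pglyrp1 and 1.47 for Hp. Without the highest Scrublet scores it was 2.21 for Wfdc21, 1.44 for Pglyrp1 and 1.20 for Hp. The top 2% of vehicle cells by Camp held 29.8% of the Lrg1, 64.6% of the Wfdc21, 2.13% of the Pglyrp1 and 8.09% of the Hp UMIs.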
